A study of Drosophila melanogaster with 3 samples.

Results

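The genes described here are the 48 protein-coding genes of Drosophila melanogaster that encode subunits of the proteasome or their close paralogs, of 13945 protein-coding genes on 6 chromosome arms. They were chosen by symbol, as genes whose name starts with Prosalpha, Prosbeta, or with Rpn or Rpt followed by a digit. General subunits account for 32 of them, and 16 are testis-type paralogs, whose symbols carry the ending T or R, alone or with a number. Binding of the zinc finger transcription factor Senseless was measured by chromatin immunoprecipitation and sequencing with an antibody against GFP, in whole embryos of mixed sex from 4 to 14 h of age. The embryos came from a transgenic line that stably expressed Senseless with GFP at its C-terminus, and the labels do not say which cells made the fusion protein or whether an untagged copy remained. All 3 biological replicates belong to this single group, so there is no contrast between conditions, and the peak lists hold no expression values against which the tissue could be checked. The values are the authors' peaks on the dm6 build: 30000, 30000 and 27681 in replicates 1, 2 and 3, 28357 in the pooled replicates, and 3811 that passed the authors' irreproducible discovery rate threshold (the reproducible list). Depth of the libraries is unknown, and no control is listed among the inputs of the dm6 lists.

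The proteasome is the protease that degrades proteins tagged with ubiquitin. Its barrel-shaped core particle is built of outer rings of alpha subunits, which gate the entry, and inner rings of beta subunits, which hold the proteolytic sites. A regulatory particle caps the barrel: its base unfolds substrates with a ring of Rpt ATPases, and its lid, made of Rpn subunits, removes ubiquitin chains. In the fly, several subunits have a second gene copy used in the male germline. Senseless acts in the precursor cells of sensory organs, and its vertebrate relative is Gfi1.

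At the transcript starts of general proteasome genes, reproducible Senseless-GFP summits were found at 7 of 32 genes, and all 7 encode Rpn subunits of the regulatory particle. They were Rpn3, Rpn5, Rpn6, Rpn8, Rpn11 and Rpn12 of the lid, and the ubiquitin receptor Rpn13. An own-start summit is one within 500 bp of an annotated transcript start of the gene. The 7 genes were 21.9% of the general genes (exact Clopper-Pearson 95% interval 9.28 to 40), beside 16.4% of all protein-coding genes (2287 of 13945). No testis-type gene had one, 0 of 16 (interval 0 to 20.6), and all 48 genes together gave 14.6%. The general genes' share thus included the genome-wide share in its interval, and the intervals cover counting over genes only.

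Within the general genes the summits were spread unevenly over the subcomplexes. Of the 8 lid genes with an Rpn symbol, 6 had one (75%, interval 34.9 to 96.8). Among the 24 other general genes it was 1 (4.17%, interval 0.105 to 21.1), beside 16.4% of all protein-coding genes. Sem1, a further lid subunit that the symbol rule leaves out, had no reproducible own-start summit and a pooled rank of 17321. It is counted with the related genes below. The alpha ring had 0 of 7, the beta ring 0 of 7 and the base ATPases 0 of 6, together 0 of 20 (interval 0 to 16.8). Of the non-ATPase base subunits and ubiquitin receptors, 1 of 4 had a summit, Rpn13. The lid was singled out after these counts were seen, so its share is a description and was not tested against the other subcomplexes.

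**Figure D1:**
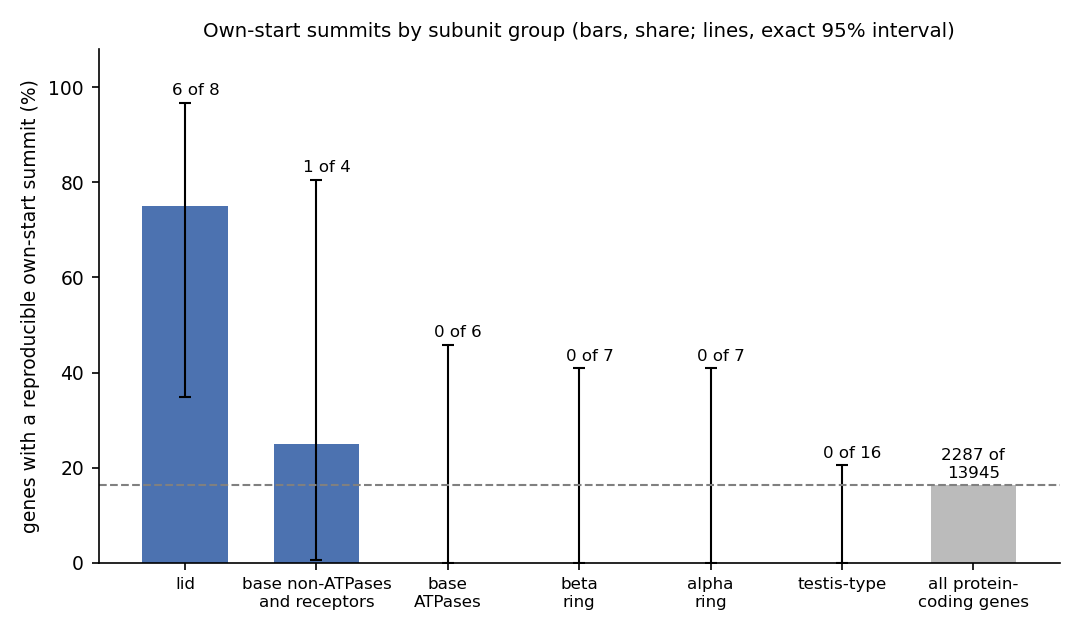
Share of genes (%) with a reproducible summit within 500 bp of an own start, for the subunit groups of the general genes, the testis-type genes and all protein-coding genes; lines are exact 95% intervals and the dashed line marks the genome-wide 16.4%. The lid bar stands at 75%, and the base ATPases, both rings and the testis-type genes are at 0.

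The sequences under these summits show what the peaks sit on. The summit windows below are 101 bases, 50 on each side of the summit, read 5′ to 3′ on the strand of the gene from the RefSeq genome sequence of dm6. Capitals mark AAATCA, the core letters recognised by Senseless, TATCGATA, the DNA replication-related element of the factor DREF, or, in Rpn3, a direct repeat. Rpn5 (plus strand, chr3R:5789219-5789319) is shown as the strongest own-start summit of the set, Rpn3 (plus strand, chr2L:19051636-19051736) for its repeat, and Rpn11 (minus strand, chr2L:5059954-5060054) as a summit with none of the motifs searched.
Rpn5: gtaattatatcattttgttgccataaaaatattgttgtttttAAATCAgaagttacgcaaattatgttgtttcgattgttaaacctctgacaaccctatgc
Rpn3: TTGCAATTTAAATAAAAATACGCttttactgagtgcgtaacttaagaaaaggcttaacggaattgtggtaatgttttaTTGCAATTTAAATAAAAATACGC
Rpn11: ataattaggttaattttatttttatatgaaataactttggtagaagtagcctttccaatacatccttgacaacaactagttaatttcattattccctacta
In the Rpn5 window the centre of AAATCA lay 6 bp from the summit. The Rpn3 window opened and closed with the same 23 bases, TTGCAATTTAAATAAAAATACGC, whose copies start 78 bases apart. A direct repeat of 20 or more bases was found in 2 of all 3811 reproducible summit windows (0.0525%), where the median longest repeat was 6 bases. The 7 summit windows of proteasome genes averaged 29.7% GC, from 23.8% to 40.6%, beside a mean of 34.3% over the 3811 windows.

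Rpn5, a scaffold subunit of the lid, had the strongest own-start summit of all members. It lay on 3R at position 5789269 of dm6, 224 bp upstream of the Rpn5 start, in an intron of the neighbouring Hat1, a histone acetyltransferase gene transcribed in the opposite direction. Its signal value, the authors' score on a scale that is not stated, was 459.2, which is rank 482 in the pooled list. In replicates 1, 2 and 3 the strongest own-start peak ranked 596, 473 and 448, with signal values of 116.1, 194.7 and 147.6. The 3 ranks lie close together, and each is far inside the strongest 3811 peaks of its list. The start of Hat1 was nearer to the summit, at 115 bp, than that of Rpn5.

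Rpn6, another lid scaffold subunit that bridges the lid to the core particle, had its summit on 2R at position 14752389. It lay inside the gene, in an intron, 118 bp upstream of the second of its annotated starts and 132 bp from the start of ave, a divergent neighbour. Its pooled rank was 556 with a signal value of 429.7, and its replicate ranks were 424, 560 and 661. The replicates again stayed within a narrow range, and Rpn6 was the strongest of the members in replicate 1.

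Rpn3, a lid subunit of the same structural family, had its summit on 2L at position 19051686, 104 bp upstream of its start and 74 bp from the divergent l(2)37Bb. The pooled rank was 777 with a signal value of 364.6, and the replicates ranked it 871, 791 and 867. The replicate summits of Rpn3 lay 35 bp downstream, 102 bp upstream and 141 bp upstream of its start, on both sides of the transcript start.

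Rpn11 is the metalloprotease that cuts ubiquitin chains from substrates. Its summit was on 2L at position 5060004, 214 bp upstream of its start, between genes and with no other protein-coding start within 500 bp. The pooled signal value was 218.7, rank 1919, and the replicate ranks were 2908, 1416 and 2310. All 3 replicates kept it among their 3811 strongest peaks, over a wider range than for Rpn5, Rpn6 and Rpn3.

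Rpn13, a ubiquitin receptor of the base, was the single general gene outside the lid with a reproducible own-start summit. The summit was on 2R at position 13960484, 80 bp upstream of its start and 191 bp from the divergent CtsL1, a cathepsin gene. It had a pooled signal value of 203.1, rank 2153, and replicate ranks of 1309, 2342 and 2304. All 3 replicates placed it among their strongest 3811.

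Rpn12 and Rpn8 were the weakest of the 7 and did not hold in every replicate. Rpn12, a lid subunit, had its summit on 3L at position 16582853, 175 bp upstream of its start with no other protein-coding start near, at a signal value of 158.5 and rank 3156. Its replicate ranks were 2274, 2074 and 14034, so replicate 3 put it far below its strongest 3811 peaks. Rpn8, the catalytically inactive partner of Rpn11, had its summit on 2R at position 24402812, in an intron of Rpn8, 193 bp upstream of its second annotated start and 132 bp from the start of Slik, a kinase gene. Its signal value was 150.8, rank 3398, and its replicate ranks were 2719, 3250 and 4669, with replicate 3 just outside. When only the first base of each gene model was used as its start, Rpn6 and Rpn8 dropped out and 5 general genes were left.

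**Figure D2:**
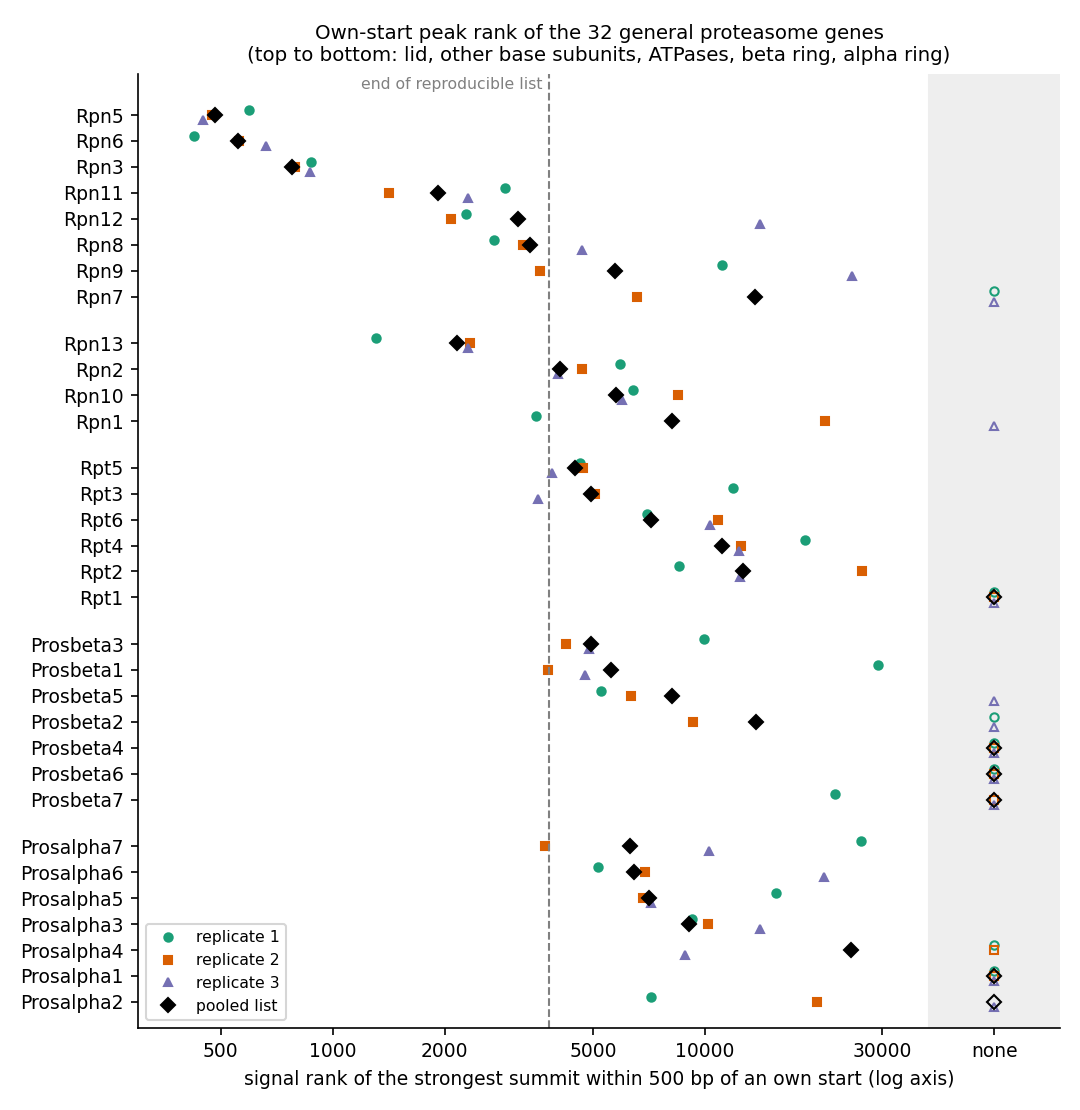
Signal rank (log axis) of the strongest summit within 500 bp of an own start, for each of the 32 general genes in the pooled list and in each replicate; open symbols in the grey band mean no such summit in that list. Rpn5, Rpn6, Rpn3, Rpn11 and Rpn13 lie left of the dashed line, the end of the reproducible list at rank 3811, in all 3 replicates.

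Taking the 3811 strongest peaks of each replicate, 8, 10 and 6 of the 32 general genes had an own-start summit in replicates 1, 2 and 3, beside 16.4%, 16.6% and 15.9% of all protein-coding genes. The 8 lid genes gave 6, 7 and 4, against 2, 3 and 2 of the 24 other general genes. No testis-type gene had one in any replicate. In all 3 replicates at once it was 5 of 32 general genes (15.6%: Rpn3, Rpn5, Rpn6, Rpn11 and Rpn13), beside 11% of all protein-coding genes. Rpn8 and Rpn12 were among the strongest in 2 replicates. Prosalpha7, Prosbeta1, Rpn1, Rpn9 and Rpt3 were so in 1 replicate each, and the other 20 general genes in none.

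The reproducible own-start summits of the 7 genes had a median rank of 1919 (482 to 3398), beside a median of 1742 over the 2287 protein-coding genes that have one. This order was not stable when a replicate was set aside, keeping at their pooled ranks only peaks among the strongest of both remaining replicates. The median was then 777, 777 and 1919 without replicates 1, 2 and 3, beside 1308, 1222 and 1313 over all genes. Rpn8 and Rpn12 drop out without replicate 1 or 2 because replicate 3 does not list them among its strongest. All 7 summits lay upstream of the nearest own start, as did 86.7% of those of all such genes, at a median of 175 bp (80 to 224) beside 131 bp. Another protein-coding start lay within 500 bp of 5 of the 7 summits (Rpn3, Rpn5, Rpn6, Rpn8 and Rpn13), beside 58.2% of the genome's own-start summits. The neighbour was divergent for each of these 5 genes, whereas the 58.2% counts neighbours on either strand. The nearest start was the member's own for 4 of the 7 (Rpn6, Rpn11, Rpn12 and Rpn13), beside 71.6%. For Rpn3, Rpn5 and Rpn8 the neighbour's start was nearer, and to which gene of a divergent pair a summit belongs was not tested.

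**Figure D3:**
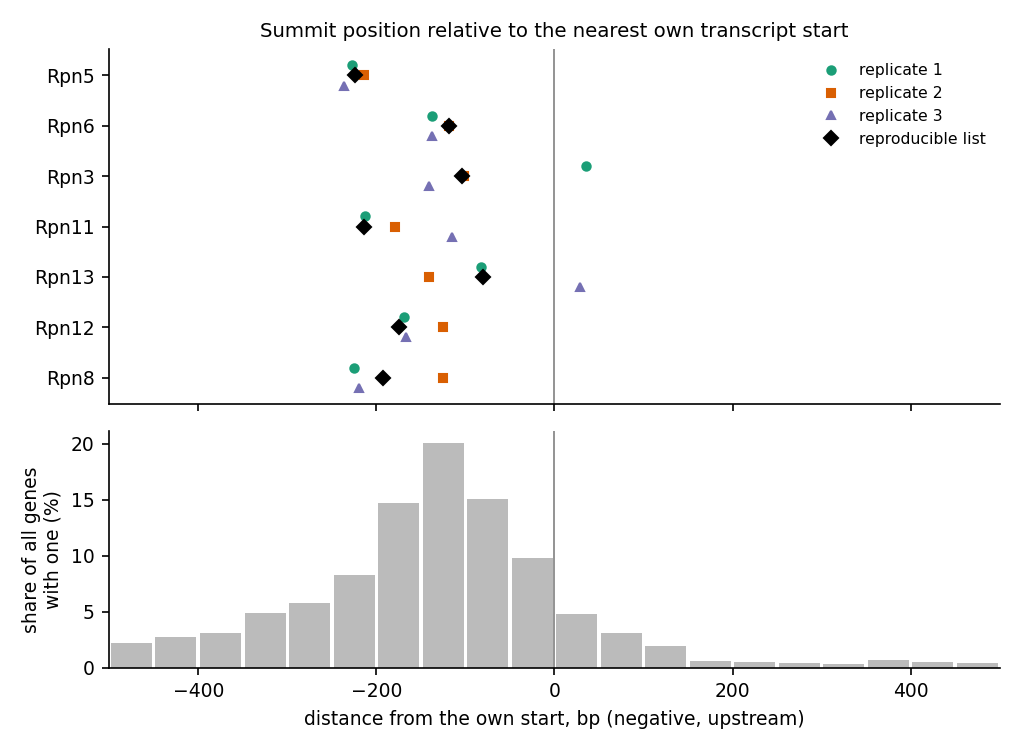
Distance in bp of the strongest own-start summit from the nearest own start (negative, upstream) for the 7 proteasome genes in the reproducible list and each replicate (upper panel), and for all 2287 protein-coding genes with one in bins of 50 bp (lower panel). The 7 reproducible summits lie 80 to 224 bp upstream.

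Just below the reproducible list came Rpn2 and Rpt5. Rpn2, the large base scaffold to which Rpn13 binds, had a pooled own-start summit at rank 4076 with a signal value of 133.4, 96 bp upstream of its start, and replicate ranks of 5914, 4680 and 4026. Rpt5, a base ATPase, followed at rank 4489 with a signal value of 125, 36 bp upstream of its start and 6 bp from the start of the divergent RanBP3; its replicate ranks were 4607, 4705 and 3875. Neither was among the strongest 3811 of any replicate, whereas Rpn8, the weakest inside the list at rank 3398, was so in 2. Their summit windows (plus strand, chr3R:29153378-29153478 and chr3R:23752790-23752890) are shown for this boundary, with TATCGATA in capitals.
Rpn2: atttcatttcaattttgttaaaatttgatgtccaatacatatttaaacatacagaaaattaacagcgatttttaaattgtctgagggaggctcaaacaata
Rpt5: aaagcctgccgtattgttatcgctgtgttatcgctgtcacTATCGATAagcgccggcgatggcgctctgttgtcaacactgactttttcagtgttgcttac
In Rpt5 the centre of TATCGATA lay 7 bp from the pooled summit. The Rpt5 window held 48.5% GC and the Rpn2 window 25.7%.

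The catalytic subunits of the beta ring had own-start peaks in the pooled list but none in the reproducible list. Prosbeta1, the caspase-like site, had pooled rank 5600 with a signal value of 107.3, and ranked 29232, 3784 and 4762 in replicates 1, 2 and 3. Prosbeta2, the trypsin-like site, had pooled rank 13698 and a peak in replicate 2 alone, at rank 9276. Prosbeta5, the chymotrypsin-like site, had pooled rank 8169, ranks of 5256 and 6348 in replicates 1 and 2, and no own-start peak in replicate 3. Each of the 3 shares its start region with a divergent neighbour, Rrp42, mRpL39 and dgo, at 35, 18 and 11 bp from the summit. Replicate ranks spread more widely for these genes than for Rpn5, Rpn6 or Rpn3. Those lid genes have stronger peaks in a pooled list made from the same replicates, so nothing is concluded from the contrast.

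Weaker peaks reached most of the other general genes. In the whole pooled list 26 of 32 general genes had an own-start summit (81.2%, interval 63.6 to 92.8), against 2 of 16 testis-type genes (12.5%) and 49.6% of all protein-coding genes. At a −log10 q-value of at least 2 the counts were 14 of 32 and 0 of 16, beside 23.2%. In this stricter set the lid had 7 of 8 genes and the other general genes 7 of 24. The pooled own-start ranks had a median of 2537.5 over the 8 lid genes, 4929.5 over 4 non-ATPase base genes and receptors, 7173 over 5 ATPase genes, 6884.5 over 4 beta genes and 7069 over 5 alpha genes, beside 6500 over the 6920 protein-coding genes with one. All 26 summits lay upstream of the nearest own start, beside 74.2% of all such genes. For Rpn6, Rpn8 and Rpn9 the summit was in an intron of the gene itself, before a later annotated start. Of the 26 summits, 20 (76.9%) had a protein-coding neighbour's start within 500 bp, divergent each time. Of all such genes, 44.1% had any neighbour's start there.

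Among the remaining ATPases of the base, Rpt3 ranked 4933 in the pooled list, Rpt6 ranked 7173, Rpt4 ranked 11147 and Rpt2 ranked 12657. The base scaffold Rpn1 ranked 8141, with 3510 and 21066 in replicates 1 and 2 and no peak in replicate 3, and the ubiquitin receptor Rpn10 ranked 5783. Of the 8 lid genes with an Rpn symbol, those without a reproducible summit were Rpn9, at pooled rank 5748, and Rpn7, at 13626. In the beta ring Prosbeta3 ranked 4939. In the alpha ring Prosalpha7 ranked 6311, Prosalpha6 ranked 6456, Prosalpha5 ranked 7069, Prosalpha3 ranked 9085 and Prosalpha4 ranked 24723. Prosalpha1, Prosalpha2, Prosbeta4, Prosbeta6, Prosbeta7 and Rpt1 had no pooled own-start summit, and of these Prosalpha1, Prosbeta4, Prosbeta6 and Rpt1 had none in any replicate either.

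The difference between the lid and the other general genes depended on how many of the strongest pooled peaks were counted. Among the 1000 strongest peaks, 3 of 8 lid genes had an own-start summit, against 0 of the 24 other general genes and 4.96% of all protein-coding genes. Among the 1905 strongest, all 3 general genes with a summit were lid genes, 3 of 32 (9.38%), beside 8.77% of all protein-coding genes. Among the 5000 strongest the counts were 6 of 8 and 5 of 24, beside 20.3%. Among the 7622 strongest they were 7 of 8 and 11 of 24 (45.8%), beside 27.7%. The other general genes were thus listed below the genome-wide share at the reproducible list, where their interval includes it, and above it further down.

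**Figure D4:**
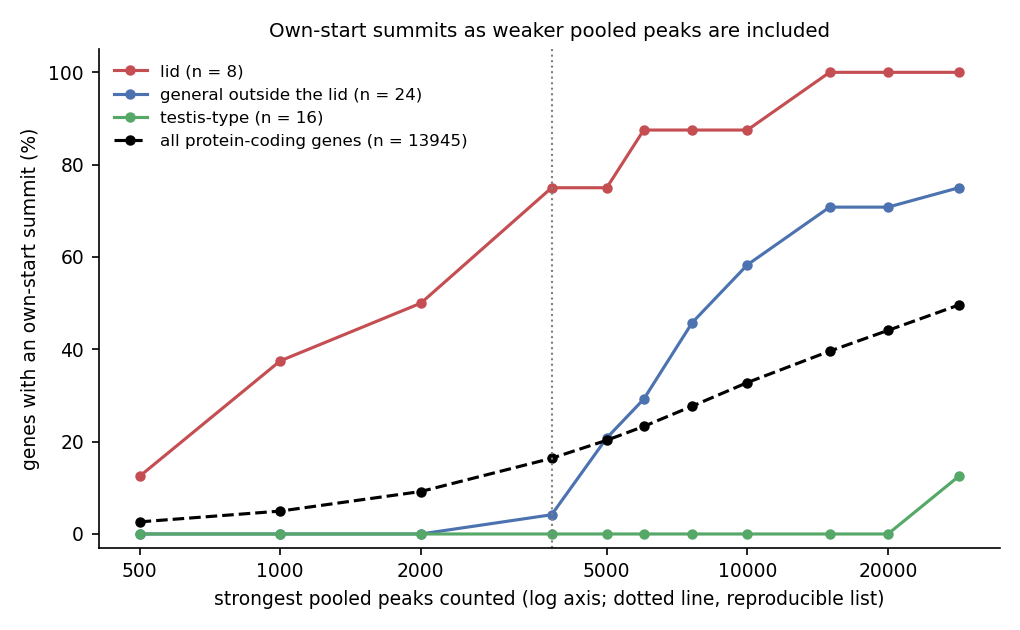
Share of genes (%) with an own-start summit among the strongest pooled peaks, against the number of peaks counted (log axis), for 8 lid genes, 24 other general genes, 16 testis-type genes and all 13945 protein-coding genes. The other general genes stand at 4.17% at the reproducible list (dotted line) and at 75% for the whole pooled list; the testis-type genes stay at 0 up to 20000 peaks.

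The testis-type genes were nearly without peaks. In the pooled list Prosbeta2R2 had an own-start summit at rank 25824 and Prosbeta5R2 at rank 27410, both in the tail of the list, with signal values of 37.59 and 36.13 where the lowest in the list is 35.31. In the whole replicate lists 4 of the 16 had one somewhere: Prosbeta2R2 at rank 18877 and Prosbeta5R2 at rank 15716 in replicate 2, and Prosbeta5R1 at rank 24782 and Rpt3R at rank 8836 in replicate 3. The other 12 had none in any list: Prosalpha1R, Prosalpha3T, Prosalpha4T1, Prosalpha4T2, Prosalpha6T, Prosbeta2R1, Prosbeta4R1, Prosbeta4R2, Rpn12R, Rpn13R, Rpt4R and Rpt6R. General genes had one in 25, 26 and 22 of 32 cases in replicates 1, 2 and 3, against 0, 2 and 2 of 16 testis-type genes and 50.8%, 51.2% and 47.2% of all protein-coding genes. Gene length was similar in both sets, with medians of 1390 bp in general and 1282 bp in testis-type genes, and both were shorter than the genome's median of 2166 bp.

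The 16 testis-type genes pair with 12 general genes, some of which have 2 copies. In the reproducible list the general gene alone had an own-start summit in 2 of 16 pairs (12.5%), Rpn12 with Rpn12R and Rpn13 with Rpn13R. In the other 14 pairs neither had one. The share over all protein-coding genes was 16.4% in that list, so the 2 pairs are not read as a difference between paralogs. Without replicate 1, or without replicate 2, the Rpn12 pair dropped out and 1 pair was left, because replicate 3 does not list Rpn12 among its strongest peaks. In the whole pooled list it was the general gene alone in 11 pairs, both genes in 2, neither in 3 and the testis-type gene alone in 0. Of all protein-coding genes, 49.6% had an own-start summit in that list.

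The promoters of Rpn12 and Rpn12R are shown as the pair that differs in the reproducible list and lies on the same arm. Each is 300 bases, from 250 before to 50 after the gene start, on the gene's own strand (Rpn12 plus, chr3L:16582778-16583077; Rpn12R minus, chr3L:15042521-15042820). Capitals mark AAATCA, or TGATTT where it stands on the other strand, TATCGATA, and AGATAA, the motif of GATA factors.
Rpn12: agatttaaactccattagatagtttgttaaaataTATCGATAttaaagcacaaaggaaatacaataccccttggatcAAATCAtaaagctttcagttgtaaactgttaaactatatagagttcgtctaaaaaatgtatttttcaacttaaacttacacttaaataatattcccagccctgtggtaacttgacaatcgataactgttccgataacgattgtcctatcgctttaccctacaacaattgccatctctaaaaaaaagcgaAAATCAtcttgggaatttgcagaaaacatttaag
Rpn12R: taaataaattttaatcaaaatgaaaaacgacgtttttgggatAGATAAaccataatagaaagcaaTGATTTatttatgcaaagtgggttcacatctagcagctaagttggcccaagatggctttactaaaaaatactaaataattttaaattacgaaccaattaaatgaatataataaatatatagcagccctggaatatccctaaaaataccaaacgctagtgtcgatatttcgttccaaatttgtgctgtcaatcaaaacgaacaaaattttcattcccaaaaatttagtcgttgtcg
The Rpn12 summit lay 4 bp from the centre of the first AAATCA and 38 bp from that of TATCGATA. The GC content was 31% in the Rpn12 promoter and 29.7% in that of Rpn12R, which had no own-start summit in any list and also holds AAATCA.

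Across the promoters, searched on both strands, TATCGATA was present in 12 of 32 general genes (37.5%), against 0 of 16 testis-type genes and 9.36% of all protein-coding genes. Of the genes with a reproducible own-start summit genome-wide, 14.9% held it. The 12 promoters were those of Prosalpha3, Prosalpha5, Prosalpha6, Prosbeta1, Prosbeta2, Prosbeta6, Rpn3, Rpn7, Rpn9, Rpn12, Rpn13 and Rpt5, of which Rpn3, Rpn12 and Rpn13 had a reproducible summit. AAATCA was as frequent in general as in testis-type promoters, at 10 of 32 and 5 of 16 (31.2% each), beside 33.5% of all promoters. Genome-wide, 32.1% of the genes with a reproducible own-start summit held AAATCA in the promoter. TGACNNNGC, the antioxidant response element bound by Cnc with a small Maf protein, was in 5 of 32 general and 1 of 16 testis-type promoters, beside 8.63%. AGATAA was in 8 of 32 and 4 of 16 (25% each), beside 18.7%. In the 101-base summit windows, AAATCA was in 3 of 7 proteasome summits (Rpn5, Rpn6 and Rpn12), beside 14.2% of all reproducible summits, and TATCGATA in 1 of 7 (Rpn12), beside 2.1%. A motif match is a description of the letters and does not show that a factor binds there.

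Looking wider, over each gene body with 5 kb on each side, 17 of 32 general genes held a reproducible summit (53.1%, interval 34.7 to 70.9), against 1 of 16 testis-type genes (6.25%, interval 0.158 to 30.2) and 42.4% of all protein-coding genes. Proteasome genes are short, and among the 10135 protein-coding genes no longer than the longest general gene, Rpn8 with 4500 bp, the share was 37.6%; for own-start summits it was 13.8%. The 17 genes had 30 such summits, of which 23 lay away from an own start. None of these 23 was inside the gene or nearest to its start, and 16 lay within 500 bp of the start of another protein-coding gene. The matching shares over all 3811 reproducible summits were not computed, so these counts are not read as a trait of the members.

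For 10 general genes the only reproducible summits near by lay away from an own start: Prosalpha3, Prosalpha4, Prosbeta6, Prosbeta7, Rpn2, Rpn9, Rpt2, Rpt4, Rpt5 and Rpt6. For Prosalpha3, Rpn9 and Rpt2 none of them lay within 500 bp of any protein-coding start. The strongest peaks near members also lay away from own starts. A summit at 3R position 5791740 near the 3′ end of Rpn5 ranked 88 with a signal value of 934.6, and lay 139 bp from the start of Hpf1, a cofactor of poly-ADP-ribosylation. The only reproducible summit in or within 5 kb of Rpt5, at 3R position 23758174, ranked 118 with a signal value of 827.8. It lay 157 bp from the start of Hrd3, a component of ubiquitin-dependent degradation at the endoplasmic reticulum. Near Prosalpha4 a summit of rank 310 lay in the 5′ UTR of eas, and near Rpn2 a summit of rank 539 lay 269 bp from the start of rdog. The single summit near a testis-type gene, Prosbeta2R2, ranked 11 in the genome with a signal value of 1899, at 3R position 5215534 in an intron of cno, a cell junction gene, 3994 bp from the start of Prosbeta2R2.

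**Figure D5:**
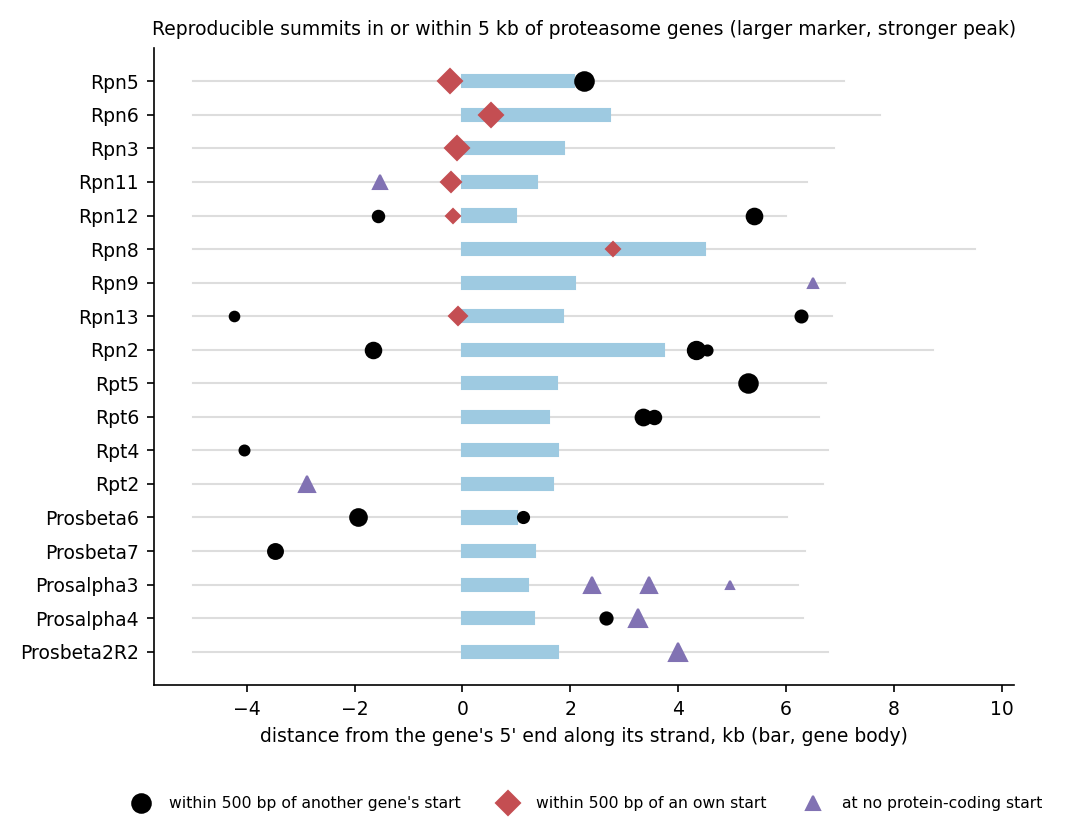
Reproducible summits in the gene body (bar) or within 5 kb on each side of the 17 general genes and of Prosbeta2R2 (bottom row), by distance in kb from the gene's 5′ end along its strand; larger markers are stronger peaks. Of the 30 summits of general genes, 7 lie at an own start (diamonds).

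The 30 related genes act in proteasome assembly, regulation or substrate delivery, or are the lid subunit Sem1 or 1 of 9 COP9 signalosome genes. A reproducible own-start summit stood at 9 of the 30 (30%, interval 14.7 to 49.4), beside 16.4% of all protein-coding genes. Outside the signalosome it stood at 8 of 21 (38.1%, interval 18.1 to 61.6). Without replicates 1, 2 and 3 in turn the count over all 30 was 7, 4 and 5 (23.3%, 13.3% and 16.7%), beside 12.4%, 11.8% and 12.4% of all protein-coding genes. Among the 9 were alien, a subunit of the COP9 signalosome and a structural relative of the lid (rank 579, replicate ranks 553, 695 and 617), and Uba1, the ubiquitin-activating enzyme (rank 1032, replicates 801, 1164 and 1417). ntc, an F-box gene needed for proteasome regulation in sperm maturation, had rank 1454, with 1746, 1527 and 1339 in the replicates, although the start of IntS10 was nearer. The polyubiquitin gene Ubi-p63E had rank 1975 with replicate ranks of 4574, 1724 and 1408, and the ubiquitin gene Ubi-p5E rank 3634 with 7554, 3927 and 2451. rngo, a ubiquitin receptor of the shuttle type, had rank 2315 with 2239, 2017 and 3884.

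Keap1 and cnc, the sensor and the transcription factor of the oxidative stress response, had ranks of 2329 and 2525. Their replicate ranks were 1535, 3235 and 2828 for Keap1 and 4641, 1791 and 2740 for cnc, whose summit lay 376 bp downstream of a start. Uch-L5, a deubiquitinase bound to Rpn13, had rank 3344 with 9634, 3622 and 2236, and lay nearest to the start of Jarid2. alien, Uba1 and ntc were among the strongest 3811 in all 3 replicates, as was Keap1, while the other 5 fell outside in at least 1. The COP9 signalosome shares the architecture of the proteasome lid. A reproducible own-start summit stood at 6 of the 8 lid genes with an Rpn symbol (75%, interval 34.9 to 96.8). It stood at 1 of 9 signalosome genes (11.1%, interval 0.281 to 48.2) and at 16.4% of all protein-coding genes. These intervals overlap, and the lid subunit Sem1, which had no such summit, is not among the 8.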

How the data were processed

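The 5 dm6 peak lists of 1 group of 3 biological replicates were used; dm3 lists were not analysed here. Sonicated fragments measured 200 to 800 bp, per the labels. Per the deposited text notes, peaks were called by the authors per replicate and on the pooled replicates, and the reproducible list was derived from these; the sources used here name no aligner, caller or threshold. Each deposited peak has a signal value (a score of unstated scale, used for ranks within a list), a −log10 q-value and a summit offset. The reproducible list equals the 3811 strongest pooled peaks. A peak in it therefore need not be among the strongest of every replicate, as for Rpn8 and Rpn12 in replicate 3. Embryo age was read from the source description, since the age label is implausible.

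Gene models came from Ensembl release 115 of the same assembly. All 48 members, and 99.8% of 13945 genes, have the same start in RefSeq. Own-start summits lie within 500 bp of any own transcript start, of which the strongest was taken, and wider summits in the gene or within 5 kb. Of 31 related genes listed, 30 matched a symbol or synonym. With 1 group no test between conditions was possible, and counts carry exact 95% binomial intervals from SciPy 1.17.1 (Python 3.11.15, NumPy 2.4.6, matplotlib 3.10.9), which cover counting over genes and no depth. To leave out a replicate, only reproducible peaks that both remaining replicates list among their own strongest were kept. Their summits and ranks stayed those of the pooled list, which still holds the replicate left out.

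The search code was checked on simulated data, 5 sets with 200 planted genes each, all recovered. The planted summits lay inside the search window, so this checks the code and not detection in these data. Members, subunit groups, related genes and motifs were chosen with earlier results of these data known. The rule for named genes was that every member is accounted for, with full values for general genes with a reproducible own-start summit, testis-type genes with any reproducible summit within 5 kb, the 2 members just below the list, the catalytic subunits and related genes with a reproducible own-start summit. A few strong summits near members were named after their values were seen. The lid count, the eIF3 genes, the length-limited background and the repeat search were added after seeing the data.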

Additional observations from a re-analysis of the deposited data

How the results depend on the processing

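Among summary counts and medians, 107 of 158 alternative values kept within 1.5 times the main count, or within the spread between replicates for a median. The other 51 moved, and 0 reversed in sign, which only the median distance could do. Of 19 single-gene ranks in 1 replicate alone, 6 lay more than 1 SD of the replicates from the pooled rank, and Rpn8 and Rpn12 were outside the strongest peaks of replicate 3; all other single-gene ranks are equal to the pooled rank by construction. For general own-start genes (7) the 1905 strongest peaks gave 3, the pooled list at a −log10 q-value of 2 gave 14, the whole pooled list 26, and counting only summits nearest to an own start 4; without one replicate it was 5 to 7. For testis-type genes (0) the whole pooled list gave 2. Lid genes (6) fell to 3 among the 1905 strongest and 3 by nearest start, and were 4 to 6 without one replicate. The other general genes (1) gave 0 among the 1905 strongest, 7 at the q-value limit, 18 in the whole list, and 2, 3 and 2 in replicates 1, 2 and 3 alone. Within 5 kb, general genes (17) gave 31 in the whole list, 4 by nearest start, 9 at 1 kb and 5 away from any transcript start. Testis-type genes (1) gave 2 at the q-value limit, 8 in the whole list, 0 by nearest start, 0 at 1 kb, 3 at 10 kb and 0 with symbols ending in R1 or R2 taken as general. The share of all protein-coding genes within 5 kb was computed for the reproducible list only, where it was 42.4%. The 5 kb counts in other settings thus have no genome-wide share beside them and are not read as a result about the members. The median rank (1919) was 556 among the 1905 strongest, 3737 at the q-value limit, 5765.5 in the whole list and 1585.5 in replicate 3 alone, and 777 to 1919 without one replicate. The median distance (-175 bp) was -118, -143.5 and -104.5 bp in these 3 lists, -153, -121.5 and -139 bp in replicates 1, 2 and 3 alone, -146.5 bp by nearest start and -175 to -118 bp without one replicate. Summits shared with a neighbour (5) numbered 3 with gene starts alone, 3 among the 1905 strongest, 11 at the q-value limit, 20 in the whole list and 8 in replicate 2 alone. Pairs with the general gene alone (2) numbered 0 among the 1905 strongest, 11 in the whole list and 1 to 2 without one replicate. Related genes (9) numbered 3 among the 1905 strongest, 27 in the whole list and 4 to 7 without one replicate: 7 without replicate 1, 4 without replicate 2 and 5 without replicate 3. The share of all protein-coding genes was 8.77% among the 1905 strongest and 49.6% in the whole list. Longer or shorter lists hold more or fewer peaks by construction; for the other changes the cause was not tested. No paired analysis was possible because there is 1 group. Depth is unknown, so what deeper libraries would show cannot be said.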

Other observations

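The proteasome lid shares its architecture with the translation initiation factor eIF3, whose genes were looked up after the lid counts were seen. A reproducible own-start summit was found at 4 of 16 genes with an eIF3 symbol (25%, exact 95% interval 7.27 to 52.4), against 16.4% of all protein-coding genes. They were eIF3c at rank 595, eIF3h at rank 747, eIF3m at rank 1284 and eIF3a at rank 1689. The summits of eIF3c, eIF3a and eIF3m lay 71, 85 and 126 bp upstream of an own start, and that of eIF3h lay 266 bp downstream. The interval includes the genome-wide share.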
